A study of Mus musculus with 8 samples.

Results

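The mitochondrial ribosomal protein genes were taken as the genes whose symbol starts with Mrpl or Mrps and a digit, and that reached 1 CPM (reads of the gene scaled to a fixed total of reads counted in genes) in at least 2 of 8 libraries. All 77 genes with such a symbol reached this level, 48 named Mrpl and 29 named Mrps, out of 12194 genes that did so in a table of 24421. The rule used symbols and levels and no comparison between groups. RNA was poly-A selected and sequenced from macrophages (BMMs) that had been grown from mouse bone marrow. The 4 groups, with 2 libraries each, were RbpjKO BMMs given TNF at 40 ng/ml for 2 days, RbpjKO BMMs at day 0, WT BMMs given the same TNF for 2 days, and WT BMMs at day 0. RbpjKO stands for Rbpj f/f;LysMcre, in which Cre from the LysM (Lyz2) locus removes floxed Rbpj in myeloid cells, so cells that escaped Cre can remain. The labels describe WT as wild type controls and state no more of their alleles. They give no age, sex or number of mice and do not say whether mice were pooled. An untreated group at 2 days is not part of the design, so the effect of TNF and that of 2 days of culture cannot be told apart, and "TNF response" below means the difference between TNF at 2 days and day 0.

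Mitochondria carry their own ribosome, which makes the few membrane subunits of the respiratory chain and ATP synthase that mitochondrial DNA encodes. All of its proteins are encoded in the nucleus, made in the cytosol and imported. Some descend from bacterial ribosomal proteins and others were gained in mitochondria, and both kinds occur in the large subunit, which joins amino acids, and in the small subunit, which reads the mRNA. Of the 77 members, 50 encode large-subunit proteins (29 bacterial-type, 21 mitochondria-specific) and 26 encode small-subunit proteins (16 and 10). The symbols do not always tell the subunit: the proteins of Mrps30 and Mrps18a sit in the large subunit. The remaining member, Mrps36, encodes a part of the alpha-ketoglutarate dehydrogenase complex and is counted apart. Rbpj encodes RBP-J, a transcription factor through which Notch receptors act and which restrains the formation of osteoclasts, the mitochondria-rich bone-resorbing cells that arise from macrophage precursors.

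The libraries held 9855859 to 35653203 reads counted in genes, and 1 read was worth 0.028 to 0.101 CPM. The shallowest library was replicate 1 of RbpjKO with TNF. Rbpj stood at 30.0 and 21.4 CPM in RbpjKO with TNF, 38.9 and 31.8 CPM in RbpjKO at day 0, 226 and 178 CPM in WT with TNF, and 215 and 216 CPM in WT at day 0, so every RbpjKO library was below every WT library. The 6 macrophage markers (among them Csf1r and Cd68) were read in every library, with sums of 4514 to 8771 CPM. In the fit with a replicate block described below, Adgre1 and Fcgr1 fell with TNF in RbpjKO. In WT 1 of the 6 fell with TNF and 1 rose in the same fit. Sums over 6 osteoclast markers (among them Acp5, Ctsk and Mmp9) were 16358 and 39245 CPM in RbpjKO with TNF, 41.5 and 89.6 CPM in RbpjKO at day 0, 6050 and 4420 CPM in WT with TNF, and 31.3 and 63.5 CPM in WT at day 0. At day 0, Calcr was at 0 in 3 of 4 libraries. Sums over 9 neutrophil markers were 36.0 to 140 CPM in the TNF groups, against 149 to 1008 CPM at day 0, with all 9 read in every library. Sums over 6 stromal markers were 116 to 178 CPM in the replicate 1 libraries and 3.9 to 32.1 CPM in the replicate 2 libraries. No sum of T and NK, B, erythroid or mast cell markers passed 10.4 CPM. The part of these cell types in the results below was not tested.

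Together the 77 genes took a small share of each library, largest in RbpjKO with TNF within each replicate number. Their CPM summed to 3854 and 2486 in RbpjKO with TNF (replicates 1 and 2), 2467 and 1812 in RbpjKO at day 0, 2747 and 1677 in WT with TNF, and 2388 and 2003 in WT at day 0. Both sums of RbpjKO with TNF were above both of RbpjKO at day 0, by a narrow margin between replicate 2 of TNF and replicate 1 of day 0, while the WT sums with TNF and at day 0 overlapped. The 2 TNF groups overlapped too, replicate 1 of WT being above replicate 2 of RbpjKO. Within a replicate number, the sum with TNF was 1.56 and 1.37 times that at day 0 in RbpjKO, and 1.15 and 0.837 times in WT. With 2 libraries a group, no exact test over libraries can pass the 0.05 threshold, so no p is given for sums. The large subunit alone gave ratios of 1.56 and 1.37 in RbpjKO and 1.16 and 0.849 in WT, and the small subunit gave 1.57 and 1.38 in RbpjKO and 1.12 and 0.809 in WT. In bulk RNA, fewer cells of a type and less RNA per cell cannot be told apart.

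**Figure D1:**
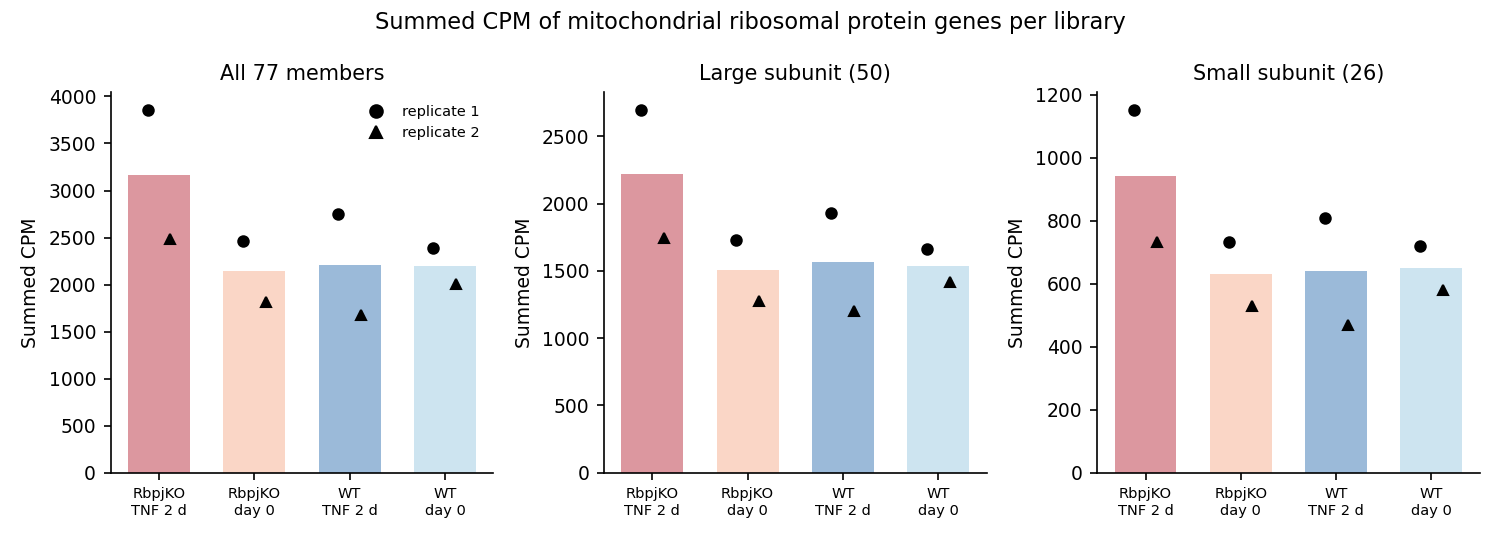
Summed CPM per library (y axis, from 0) for all 77 members, the 50 large-subunit genes and the 26 small-subunit genes, by group. Bars are the means of 2 libraries, circles replicate 1 and triangles replicate 2; replicate 2 is below replicate 1 in all 4 groups, and RbpjKO with TNF is highest within each replicate number.

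Per kilobase of exon, the mean level over the 8 libraries was highest for Mrpl34 (46.1 CPM per kb), Mrpl12 (43.8) and Mrpl18 (35.6), all bacterial-type proteins of the large subunit. It was lowest for Mrpl23 (2.39 CPM per kb), Mrpl48 (2.58) and Mrps10 (2.63). The levels of the 77 genes, whose products occur once or a few times in the same particle, thus spanned more than an order of magnitude per kilobase, with a median of 11.9 CPM per kb. The annotated exon lengths behind these values join all transcripts of a gene, so a gene with long rare transcripts reads low.

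In RbpjKO BMMs, mitochondrial ribosomal protein genes were mostly higher with TNF than at day 0. The median log2 difference of the 77 was 0.48, against -0.10 for all 12194 genes, with a range from -0.19 to 1.74. Above 0 were 70 of 77 members and 5242 of 12194 genes. Of the 77, 67 were higher in both replicates (33.3% of all genes were) and 1 was lower in both (45.4% of all genes were). In 37 members both TNF libraries exceeded both day 0 libraries (20.4% of all genes), and in 0 were both lower (25.2% of all genes). In the limma fit of log2(CPM + 0.5) with group as the only term, 1 member passed an adjusted p of 0.05, Mrps35, where 3.09% of all genes passed upwards and 2.01% downwards. The differences of replicate 2 from replicate 1 went together across groups (Pearson r 0.577 to 0.805 over genes), so the replicate number was also fitted as a block. They had the same sign in all 4 groups for 53 of 77 members and 6669 of 11276 genes with an annotated coding transcript. With the block 27 of 77 rose, 18 of 50 in the large subunit and 9 of 26 in the small, where 12.2% of all genes rose and 13.7% fell. No member fell in either fit. The count of 27 rested on all 4 RbpjKO libraries. Without replicate 1 of TNF it was 8 (10.4%, against 10.3% of all genes), and without replicate 2 of TNF it was 3 (3.90%, against 6.10% of all genes). Without replicate 1 of day 0 it was 4 (5.19%, against 6.04% of all genes), and without replicate 2 of day 0 it was 3 (3.90%, against 4.32% of all genes). Without any 1 RbpjKO library the share of members that passed was thus close to or below that of all genes. It was 22 to 27 without any 1 WT library, where 11.3% to 11.5% of all genes rose. On recovered reads, edgeR with the block called 38 members (13.1% of all genes). Without the block edgeR called 1 (2.57% of all genes) and DESeq2 called 11 (8.23% of all genes).

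**Figure D2:**
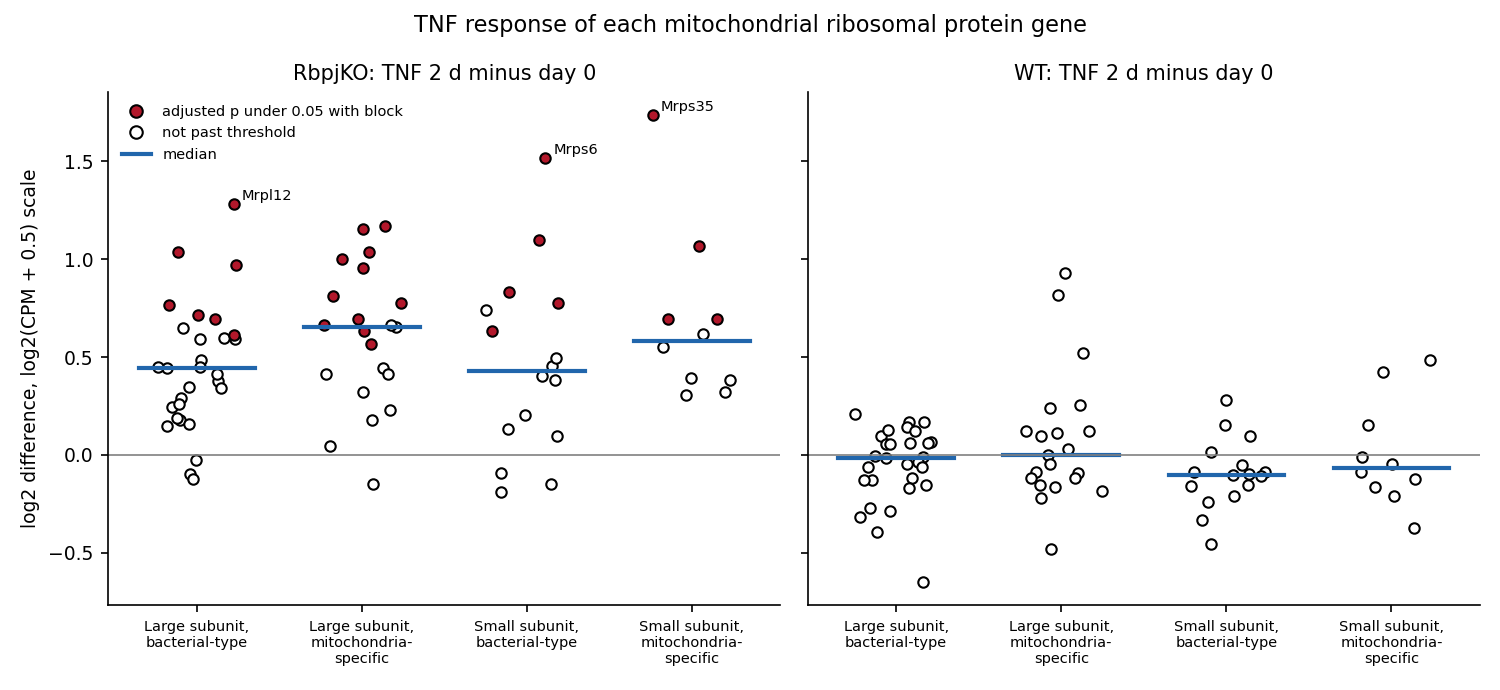
Log2 difference between TNF at 2 days and day 0, on the log2(CPM + 0.5) scale (y axis), for the 76 ribosomal members in 4 classes, in RbpjKO (left) and WT (right). Filled points passed an adjusted p of 0.05 with the replicate block (27 in RbpjKO, 0 in WT), open points did not, and bars are class medians.

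Mrps35 and Mrps6 had the largest differences. Mrps35, a mitochondria-specific protein of the small subunit (mouse build GRCm38, chromosome 6, 147042764 to 147073991), stood at 55.7 and 51.8 CPM in RbpjKO with TNF, 17.7 and 14.1 CPM in RbpjKO at day 0, 25.7 and 15.0 CPM in WT with TNF, and 15.9 and 13.3 CPM in WT at day 0. The RbpjKO libraries with TNF were above all 6 others. The log2 difference with TNF in RbpjKO was 1.74 ± 0.34 (moderated SE, n = 2 against 2; limma, adjusted p = 0.0399, and 0.00292 with the block). Without the block this call was lost when any 1 RbpjKO library or any 1 WT day 0 library was left out; with the block it held in each case, at an adjusted p of at most 0.031. Mrps6, the bacterial-type S6 protein of the small subunit, stood at 38.7 and 20.7 CPM in RbpjKO with TNF, 12.7 and 7.15 CPM in RbpjKO at day 0, 20.98 and 10.01 CPM in WT with TNF, and 15.3 and 9.20 CPM in WT at day 0. In every group its replicate 1 was higher than its replicate 2, and in RbpjKO the TNF libraries did not overlap those of day 0. Its log2 difference was 1.52 ± 0.54, with an adjusted p of 0.185 in limma and 0.00312 with the block.

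**Figure D3:**
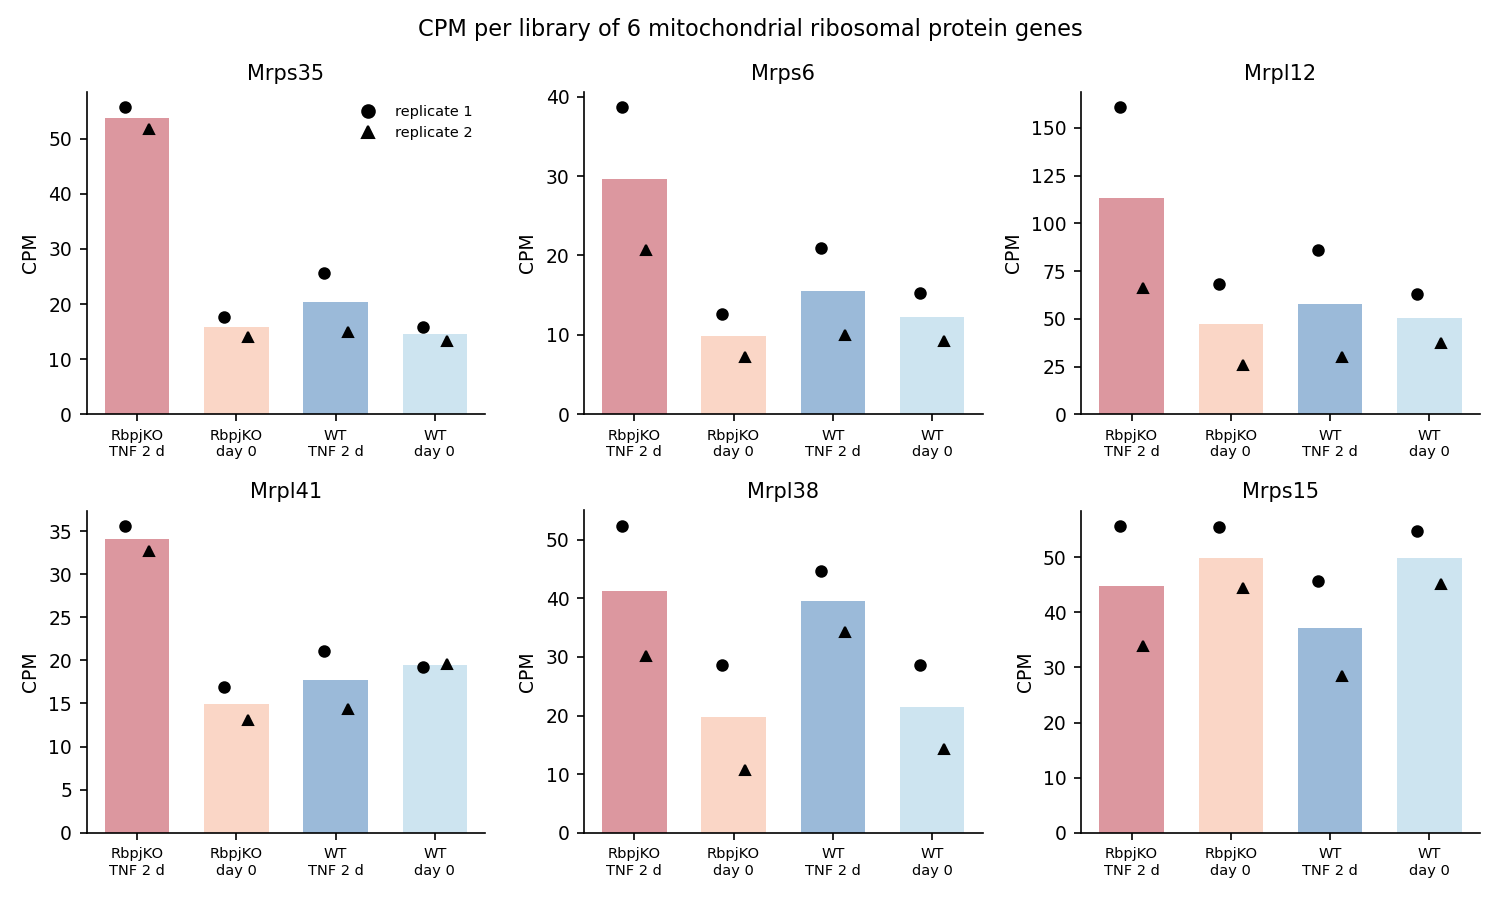
CPM per library (y axis, from 0) of Mrps35, Mrps6, Mrpl12, Mrpl41, Mrpl38 and Mrps15 in the 4 groups; bars are means of 2 libraries, circles replicate 1 and triangles replicate 2. Both RbpjKO libraries with TNF stand above the other 6 for Mrps35 and Mrpl41, Mrpl38 is higher with TNF in both genotypes, and Mrps15 has no such step.

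Among other small-subunit genes, Mrps5 (bacterial-type S5, at the mRNA entry side of the particle) had 45.5 and 21.5 CPM in RbpjKO with TNF, against 20.98 and 9.77 CPM in RbpjKO at day 0, and rose by a log2 difference of 1.10 with the block (limma adjusted p = 0.012, against 0.433 without it). Mrps34, a mitochondria-specific protein whose loss lowers mitochondrial translation in mice, had 79.0 and 19.0 CPM with TNF, against 30.6 and 10.9 CPM at day 0, in RbpjKO. The groups overlapped there, yet within each replicate number the TNF library was higher, and the log2 difference of 1.07 passed with the block (adjusted p = 0.0166). Mrps16, mutated in a human respiratory chain disease, rose by 0.63 with the block (adjusted p = 0.0467). Mrps22, also a human disease gene, had a difference of 0.62 and did not pass (adjusted p = 0.106 with the block). Of the small-subunit genes, 5 of 16 bacterial-type and 4 of 10 mitochondria-specific ones rose with the block, where 12.2% of all genes rose. The median differences were 0.43 and 0.58. Mrps9, Mrps2, Mrps18b and Mrps23 complete the 9 that rose, at 0.69 to 0.83.

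The small-subunit genes at the other end were bacterial-type. Mrps15 had 55.7 and 33.9 CPM in RbpjKO with TNF, 55.5 and 44.4 CPM in RbpjKO at day 0, 45.8 and 28.5 CPM in WT with TNF, and 54.7 and 45.1 CPM in WT at day 0. The TNF and day 0 libraries overlapped in both genotypes, and the differences of -0.19 ± 0.36 and -0.46 ± 0.36 did not pass (limma adjusted p = 0.868 and 0.783). Mrps11 had a difference of -0.15 in RbpjKO, and Mrps12, whose protein sits at the decoding centre, one of -0.09. Mrps12 had 16.8 and 2.90 CPM in RbpjKO with TNF, against 14.5 and 3.95 CPM in RbpjKO at day 0, so its 2 replicates lay further apart than the 2 groups.

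In the large subunit, Mrpl12 had the largest difference with TNF in RbpjKO. Its protein forms the flexible stalk that recruits translation factors, and in human cells it also binds the mitochondrial RNA polymerase. Mrpl12 stood at 161 and 66.0 CPM in RbpjKO with TNF, 68.4 and 25.8 CPM in RbpjKO at day 0, 85.8 and 29.9 CPM in WT with TNF, and 63.2 and 37.4 CPM in WT at day 0. Replicate 2 with TNF lay just below replicate 1 of day 0, and within each replicate number RbpjKO with TNF was the highest group. The log2 difference was 1.28 ± 0.73 (limma adjusted p = 0.414, and 0.00803 with the block). Mrpl41, a mitochondria-specific protein, had closer replicates: 35.6 and 32.6 CPM in RbpjKO with TNF, 16.9 and 13.1 CPM in RbpjKO at day 0, 21.1 and 14.3 CPM in WT with TNF, and 19.3 and 19.6 CPM in WT at day 0. Both RbpjKO libraries with TNF were above the other 6, with a log2 difference of 1.17 ± 0.31 (adjusted p = 0.0878, and 0.00941 with the block). Mrpl11, at the base of the same stalk as Mrpl12, had a difference of 0.44 that did not pass (0.153 with the block), nor did that of Mrpl3, a core protein of the large subunit, at 0.19.

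Mitochondria-specific genes of the large subunit had a median difference of 0.65 in RbpjKO and 11 of 21 rose with the block. The bacterial-type genes had a median of 0.44 and 7 of 29 rose, where 12.2% of all genes rose. Without the block 0 of either class passed, and the calls with it rested on every RbpjKO library, as described above. The difference between these classes was not tested. Those that rose among the mitochondria-specific genes were Mrpl41, Mrpl38, Mrpl51, Mrpl52, Mrpl55, Mrps18a, Mrpl37, Mrpl46, Mrpl44, Mrpl45 and Mrpl42, at 0.57 to 1.17. Among the bacterial-type genes they were Mrpl12, Mrpl47, Mrpl34, Mrpl9, Mrpl1, Mrpl36 and Mrpl10, at 0.62 to 1.28. Mrpl44, whose protein resembles RNase III and which is mutated in human cardiomyopathy, had 40.7 and 34.8 CPM in RbpjKO with TNF, against 22.7 and 24.5 CPM in RbpjKO at day 0, with no overlap (log2 difference 0.66, adjusted p = 0.0359 with the block). The lowest large-subunit differences were those of Mrpl49 (-0.15) and Mrpl23 (-0.12), and neither passed. The Mrpl23 protein lies at the rim of the exit tunnel.

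Mouse has 3 Mrps18 paralogs, and their proteins occupy different places in the ribosome. Mrps18a, in the large subunit, had 62.9 and 56.3 CPM in RbpjKO with TNF, against 39.6 and 28.7 CPM in RbpjKO at day 0. Mrps18b, at a mitochondria-specific position of the small subunit, had 27.6 and 16.1 CPM in RbpjKO with TNF, against 16.9 and 9.73 CPM in RbpjKO at day 0. Mrps18c, at the bacterial S18 position, had 29.3 and 24.7 CPM in RbpjKO with TNF, against 22.4 and 28.1 CPM in RbpjKO at day 0. Mrps18a was without overlap, Mrps18b overlapped by a narrow margin, and Mrps18c lay across its day 0 range. The log2 differences were 0.81 for Mrps18a (adjusted p = 0.0184 with the block), 0.69 for Mrps18b (0.0457) and 0.10 for Mrps18c (0.76). Mrps36, the member outside the ribosome, had 8.83 and 6.64 CPM in RbpjKO with TNF, against 4.75 and 3.55 CPM in RbpjKO at day 0. Its difference of 0.82 just missed the threshold with the block (adjusted p = 0.0502).

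Because many members were higher together, their promoters are shown. RefSeq windows (GRCm38.p6, 250 bases before to 50 after a start) were found for 68 of the 77 genes, 74 windows in all, some of 1 gene overlapping. Mrps35, Mrps34 and Mrpl38 were not among them. The windows were searched on both strands for TGCGCA (the core of the NRF1 site), CCGGAAG (an ETS core, as bound by GABP), AAGATGG (a YY1 core), CACGTG (the E-box), TGGGAA (the RBP-J core) and AAGGTCA (an ERR core). NRF1 and GABP are known as regulators of nuclear genes for mitochondrial proteins. The bases before the start are given for 4 members, 5′ to 3′, with NRF1, ETS and YY1 cores in capitals. In these bases Mrps18a holds an NRF1 and an ETS core, Mrps6 an NRF1 core and Mrpl51 an ETS core. Mrps15, which did not rise, holds none of these 3 cores but an ERR core, left in lower case. The searched windows also take in 50 bases after the start, not printed here, where Mrps18a has a YY1 core. The 4 shown do not stand for the rest. Mrpl12, Mrpl41, Mrps5, Mrpl47, Mrpl1, Mrpl46, Mrpl55 and Mrps2 rose with the block and hold no NRF1, ETS or YY1 core in their windows. Mrpl32, Mrpl17 and Mrpl22 did not pass with the block and each hold more than 1 such core. Missing the threshold does not show that a gene was unchanged: Mrpl17 was higher with TNF in both RbpjKO replicates (log2 difference 0.48).
Mrps18a, chr17:46110754-46111003, + strand: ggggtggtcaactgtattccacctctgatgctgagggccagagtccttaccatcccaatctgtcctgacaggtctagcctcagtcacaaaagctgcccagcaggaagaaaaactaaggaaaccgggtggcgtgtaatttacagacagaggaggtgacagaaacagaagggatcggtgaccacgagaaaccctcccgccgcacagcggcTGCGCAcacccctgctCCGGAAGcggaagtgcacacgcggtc
Mrps6, chr16:92058086-92058335, + strand: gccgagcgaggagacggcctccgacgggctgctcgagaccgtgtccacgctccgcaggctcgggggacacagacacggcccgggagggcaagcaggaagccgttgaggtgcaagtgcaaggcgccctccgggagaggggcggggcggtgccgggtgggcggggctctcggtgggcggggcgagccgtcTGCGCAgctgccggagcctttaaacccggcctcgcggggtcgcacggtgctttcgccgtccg
Mrpl51, chr6:125191950-125192199, + strand: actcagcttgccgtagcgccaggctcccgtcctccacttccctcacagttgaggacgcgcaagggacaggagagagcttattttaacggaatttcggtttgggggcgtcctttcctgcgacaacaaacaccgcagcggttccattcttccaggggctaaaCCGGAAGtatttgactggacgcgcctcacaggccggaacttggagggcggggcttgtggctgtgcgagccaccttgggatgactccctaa
Mrps15, chr4:126046678-126046927, + strand: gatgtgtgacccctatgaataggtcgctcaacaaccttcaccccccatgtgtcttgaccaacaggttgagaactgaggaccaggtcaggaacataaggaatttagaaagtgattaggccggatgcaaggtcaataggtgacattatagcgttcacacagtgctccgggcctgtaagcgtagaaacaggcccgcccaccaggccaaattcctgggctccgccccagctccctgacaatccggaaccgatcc

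The NRF1 core was in 28.4% of member windows (21 of 74), against 13.5% of the 11901 windows of all genes tested and 7.76% of all 32851 windows. The ETS core was in 33.8% of member windows (25), against 17.5% and 8.86%, and the YY1 core in 17.6% (13), against 7.24% and 6.34%. The other cores were nearer the shares of other promoters: the RBP-J core was in 25.7% of member windows (19), against 23.2% of windows of genes tested and 25.6% of all, the E-box in 9.46% (7), against 1190 of 11901 windows and 7.15%, and the ERR core in 5.41%, against 3.31% and 4.72%. Among members, the NRF1 core was in 12 of 25 windows of genes that rose with the block and in 9 of 49 windows of the others. The ETS core was in 7 of 25 windows and 18 of 49 windows of the same sets. The 12 include overlapping windows of Mrps16 that hold the same core. The 49 include overlapping windows of Mrpl2 and several windows of Mrpl48, all without the NRF1 core, so windows do not count genes. Which genes count as risen rested on every RbpjKO library, as described above. These are counts of letters in a window, with no test, and show no binding.

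In WT BMMs the members had no common direction of difference with TNF across replicates 1 and 2. Their median log2 difference was -0.05, against -0.12 for all genes, and 29 of 77 were above 0 (4739 of 12194 genes were). The members' medians within replicates 1 and 2 were 0.20 and -0.27. Rescaling moved the median of all genes to 0.00 (median ratio) and that of the members to 0.07, with 53 of 77 above 0, so the sign of the WT median depended on the scaling. Of the 77, 12 were higher in both replicates (27.5% of all genes) and 15 lower in both (43.6%). In 3 members (Mrpl27, Mrpl38 and Mrpl45) the TNF libraries were above those of day 0 without overlap (14.8% of all genes), and in 5 (Mrpl3, Mrpl19, Mrpl30, Mrpl40 and Mrpl49) they were below (22.6%). An unadjusted limma p under 0.05 was found for 0 members without the block and 6 with it, against 1478 and 3533 of 12194 genes. After adjustment no member passed in limma, with or without the block. Of all genes, 0.812% rose and 0.369% fell without the block, and 5.54% and 4.71% with it. On recovered reads, edgeR and DESeq2 called 0 members, and edgeR with the block called 2 (5.78% of all genes).

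Mrpl38 had the highest difference in WT and was close to the same in both genotypes. It stood at 52.4 and 30.2 CPM in RbpjKO with TNF, 28.6 and 10.8 CPM in RbpjKO at day 0, 44.7 and 34.2 CPM in WT with TNF, and 28.6 and 14.3 CPM in WT at day 0. In both genotypes the TNF libraries were above those of day 0. The log2 differences were 1.15 ± 0.57 in RbpjKO (adjusted p = 0.0194 with the block) and 0.93 ± 0.57 in WT (0.0659 with the block). Mrpl45, which in human mitochondria ties the ribosome to the inner membrane, had 62.1 and 50.4 CPM in RbpjKO with TNF, 34.8 and 37.0 CPM in RbpjKO at day 0, 56.2 and 51.3 CPM in WT with TNF, and 35.6 and 39.1 CPM in WT at day 0. Its TNF libraries again exceeded those of day 0 in both genotypes, by 0.63 in RbpjKO (0.0381 with the block) and 0.52 in WT (0.103 with the block). Mrpl52, a mitochondria-specific protein, had 98.6 and 32.5 CPM in RbpjKO with TNF, 40.3 and 19.5 CPM in RbpjKO at day 0, 60.6 and 19.6 CPM in WT with TNF, and 26.1 and 14.4 CPM in WT at day 0. Within each replicate number TNF was higher in both genotypes, with an adjusted p of 0.0269 in RbpjKO and 0.0802 in WT with the block. Mrps34, Mrps35 and Mrps6 followed in WT at 0.48, 0.42 and 0.28. The lowest WT differences were -0.65 for Mrpl19, -0.48 for Mrpl49, -0.46 for Mrps15 and -0.39 for Mrpl28, and none passed.

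With TNF, RbpjKO was above WT for most members. These values share the RbpjKO libraries with TNF with the response described for RbpjKO, and are given side by side, not as separate support. The median log2 difference between RbpjKO and WT with TNF was 0.50 (0.015 for all genes), and the medians within replicates 1 and 2 were 0.47 and 0.55. Above 0 were 74 of 77 members and 6271 of 12194 genes. Of the 77, 67 were higher in RbpjKO in both replicates (38.1% of all genes) and 2 lower in both (35.4%). In 30 both RbpjKO libraries exceeded both WT libraries (18.8% of all genes), and in 0 were both below (16.1%). Without the block, 9 of 77 members had an unadjusted limma p under 0.05, as did 1372 of 12194 genes. After adjustment limma without the block called 0 members, and 1 gene of all (0.0082%) passed upwards. With the block 10 were higher in RbpjKO (5.53% of all genes were, and 3.75% were lower): Mrps35, Mrpl12, Mrpl41, Mrps5, Mrps6, Mrpl51, Mrpl42, Mrpl37, Mrpl34 and Mrpl1. That count was 0 without replicate 2 of RbpjKO with TNF or of WT with TNF, where 6 and 0 of all genes passed upwards. It was 1 (1.30%) without replicate 1 of RbpjKO with TNF (5.81% of all genes), and 1 without replicate 1 or replicate 2 of RbpjKO at day 0 (2.07% and 2.06% of all genes), so it was then below the share of all genes. It was 2 (2.60%) without replicate 1 of WT with TNF (2.69% of all genes), 5 (6.49%) without either WT day 0 library (3.28% and 3.26% of all genes), and 0 in a fit of the 4 TNF libraries alone, where 77 of all genes passed upwards. On recovered reads edgeR called 0 members without the block and 12 with it (3.79% of all genes). DESeq2 called 3 (3.90%), near its share of all genes (3.08%).

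The largest differences between RbpjKO and WT with TNF were those of Mrps35 (1.43 ± 0.34, adjusted p = 0.0208 with the block), Mrpl47 (1.03 ± 0.34, 0.0687) and Mrpl12 (1.02 ± 0.73, 0.038). Mrpl41 followed at 0.95, and Mrps5 and Mrps6 at 0.94 each. Mrpl47, the counterpart of bacterial L29 at the exit tunnel, had 29.9 and 24.5 CPM in RbpjKO with TNF, 13.2 and 12.7 CPM in RbpjKO at day 0, 13.2 and 12.8 CPM in WT with TNF, and 10.2 and 17.5 CPM in WT at day 0. Both RbpjKO libraries with TNF were above the other 6. Mrpl38 and Mrpl45, higher with TNF in both genotypes, differed by 0.02 and 0.06 between RbpjKO and WT. The lowest values were -0.11 for Mrpl39, -0.07 for Mrpl14, -0.03 for Mrpl27 and 0.02 for Mrpl33, and none passed.

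At day 0, RbpjKO and WT differed little in these genes. The median log2 difference was -0.05 (0.0051 for all genes), with 28 of 77 above 0 (6194 of 12194 genes were) and a range from -0.49 to 0.52. Of the 77, 19 were higher in RbpjKO in both replicates (31.8% of all genes) and 25 lower in both (25.9%); in 3 the groups were apart upwards (9.86% of all genes) and in 6 downwards (8.66%). No member passed in limma with or without the block, and 0.0% of all genes passed without it (with it, 0.0% upwards and 0.0082% downwards). Of the members, 0 had an unadjusted p under 0.05 in either fit, against 164 of 12194 genes without the block and 729 with it. edgeR and DESeq2 on recovered reads called 0 members as well. The highest difference was that of Mrpl52, with 40.3 and 19.5 CPM in RbpjKO at day 0, against 26.1 and 14.4 CPM in WT at day 0 (0.52 ± 0.76). The lowest was that of Mrpl19, with 50.2 and 40.2 CPM in RbpjKO, against 61.8 and 64.3 CPM in WT (-0.49 ± 0.42). Mrpl17, Mrps34, Mrps25, Mrpl23 and Mrps24 followed at the high end, at 0.14 to 0.29, and Mrps27, Mrpl41 and Mrps6 at the low end, at -0.39, -0.38 and -0.30.

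The test of the difference itself, the TNF response in RbpjKO minus that in WT, gave no call. Its median over the members was 0.54 (0.011 for all genes) and 74 of 77 were above 0 (6206 of 12194 genes were). In limma 0 members passed with or without the block, and 0.0% of all genes passed in both fits. An unadjusted p under 0.05 was found for 2 members without the block and 27 with it, against 689 and 2192 of 12194 genes. edgeR with and without the block and DESeq2 also called 0 members. The largest values were 1.33 ± 0.44 for Mrpl41 and 1.31 ± 0.48 for Mrps35 (adjusted p = 0.12 and 0.122 with the block), and the lowest were -0.09 for Mrpl14 and -0.08 for Mrpl33. The TNF responses of the 2 genotypes are therefore not shown to differ for any single member.

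Genes that work with the mitochondrial ribosome were followed in the same fits, in which 3.09% of all genes rose with TNF in RbpjKO without the block and 12.2% with it, and 13.7% fell with it. In RbpjKO with TNF, none of 15 translation factors fell, 2 rose without the block, Gfm1 (the elongation factor that moves the ribosome along) and Lrpprc (which stabilises mitochondrial mRNAs), and 5 rose with it, the others being Tufm, Tsfm and Taco1, with a list median of 0.50. Gfm1 had 168 and 147 CPM in RbpjKO with TNF, 61.9 and 42.2 CPM in RbpjKO at day 0, 72.8 and 52.1 CPM in WT with TNF, and 58.4 and 60.7 CPM in WT at day 0. The RbpjKO libraries with TNF were more than 2 times any other (log2 difference 1.61 ± 0.29, limma adjusted p = 0.031). Of 20 mitochondrial aminoacyl-tRNA synthetases, 5 rose with the block (Iars2, Lars2, Rars2, Tars2 and Wars2) and the median was 0.39. Of 28 assembly genes, 5 rose with the block (Mettl15, Mtg1, Noa1, Rnmtl1 and Mpv17l2), not far from the share of all genes, and 1, Rbfa, fell, with a median of 0.10. Rbfa, a small-subunit assembly factor, fell with the block in WT too, by 0.94 on the log2 scale. Of 6 mitochondrial ribosomal proteins with other symbols, Ptcd3 rose with the block (1.08), and the median was 0.37. Ptcd3 is a small-subunit protein with pentatricopeptide repeats. Beyond the 3 genes of smallest p in each list, the genes of these lists are named because they passed, that is, after their values were seen.

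Of 17 genes for transcription and upkeep of mitochondrial DNA, 4 rose with the block and 1 without, at a median of 0.17. They were Trmt10c and Hsd17b10, parts of mitochondrial RNase P, the helicase Supv3l1, and Peo1, the replicative helicase. Hsd17b10 had 127 and 110 CPM in RbpjKO with TNF, 36.0 and 26.7 CPM in RbpjKO at day 0, 72.1 and 36.1 CPM in WT with TNF, and 36.8 and 23.1 CPM in WT at day 0. Nuclear genes of oxidative phosphorylation, whose products join the mitochondrially made subunits, moved further than the ribosomal genes: 64 of 73 rose in RbpjKO with the block and 15 without, with a median of 1.12, and in WT 1 (Sdhb) rose with the block, with a median of 0.28. Mitochondrial protein import genes were between these 2 lists, with 18 of 30 up with the block, 2 without, and a median of 0.85. Cytosolic ribosomal proteins stood apart from both: 0 of 75 passed in limma in either fit. An unadjusted p under 0.05 was found for 0 without the block and 1 with it, against 2373 and 4936 of 12194 genes in RbpjKO. Their median was -0.07 in RbpjKO, near that of all genes (-0.10), and -0.15 in WT. The differences between lists were not tested.

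**Figure D4:**
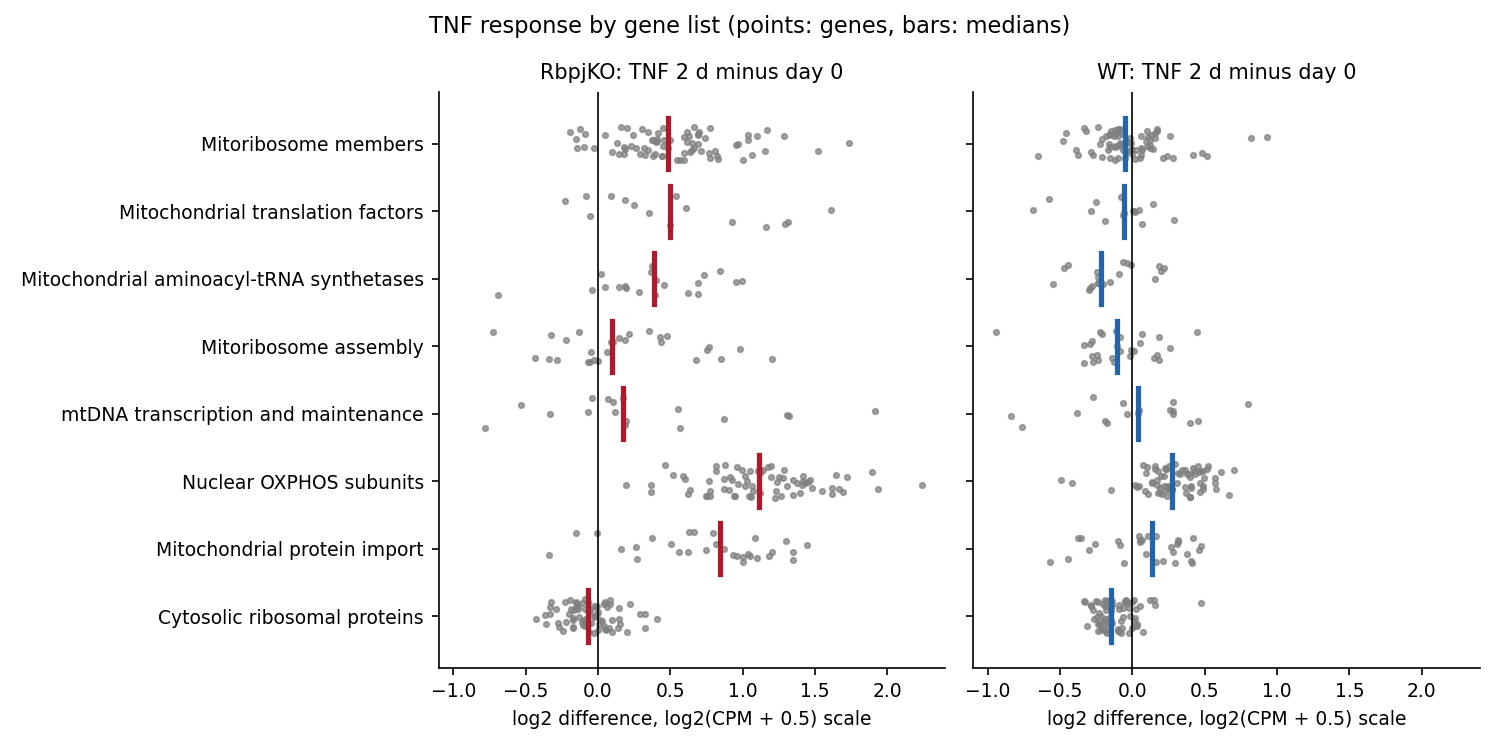
Log2 difference between TNF at 2 days and day 0, on the log2(CPM + 0.5) scale (x axis), for the members and 7 other gene lists (y axis), in RbpjKO (left) and WT (right). Points are genes and bars list medians; in RbpjKO the medians run from -0.07 for cytosolic ribosomal proteins to 1.12 for nuclear OXPHOS subunits, with 0.48 for the mitochondrial ribosomal protein genes.

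Of 8 regulators of mitochondrial gene expression, 6 had differences with TNF below 0 in RbpjKO and 6 in WT, with list medians of -0.13 and -0.25. In RbpjKO 2 rose with the block, Ppargc1b and Esrra, 1 of them (Ppargc1b) also without it, and none fell; in WT 1, Ppargc1b, rose with the block. Ppargc1b (the coactivator PGC-1β) had 111 and 64.6 CPM in RbpjKO with TNF, 5.83 and 1.64 CPM in RbpjKO at day 0, 30.6 and 14.5 CPM in WT with TNF, and 6.12 and 2.08 CPM in WT at day 0. Both TNF groups exceeded their day 0 group, and within each replicate number RbpjKO with TNF was highest. The log2 differences with TNF were 4.53 ± 0.73 in RbpjKO (limma adjusted p = 0.0233, and 0.000512 with the block) and 2.39 ± 0.73 in WT (0.231, and 0.004 with the block). Esrra, the nuclear receptor ERRα, rose in RbpjKO with the block (1.17, adjusted p = 0.00393, against 0.59 without it). Gabpb1, a subunit of GABP, had a difference of -0.45 that did not pass.

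Most of these genes were lower in replicate 2 than in replicate 1. Replicate 2 minus replicate 1 had a median of -0.49 on the log2 scale over the members, averaged over the groups, against -0.14 over all genes with an annotated coding transcript, and 66 of 77 were below 0, against 6581 of 11276. The difference went with GC content of the transcript: Pearson's r was -0.62 and Spearman's rho -0.64 over the 77 members, which share the same 8 libraries, and -0.56 and -0.62 over 11276 genes. In 3 bins of GC content (26, 25 and 26 members), the members' median replicate difference was -0.19, -0.30 and -1.07 from low to high GC. Mrpl34, at 58.3% GC, had 68.8 and 16.2 CPM in RbpjKO with TNF, 33.8 and 8.26 CPM in RbpjKO at day 0, 44.0 and 8.23 CPM in WT with TNF, and 36.3 and 8.42 CPM in WT at day 0. Its replicate 1 libraries were all above its replicate 2 libraries, whatever the group. The median TNF response in RbpjKO was 0.47, 0.55 and 0.52 in the same bins, and its Pearson's r with GC was 0.056 over the 77 members. With the block 6 of 26, 10 of 25 and 11 of 26 members rose, fewest at low GC, where 12.2% of all genes at any GC rose. The part of GC content in the TNF response was not tested.

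**Figure D5:**
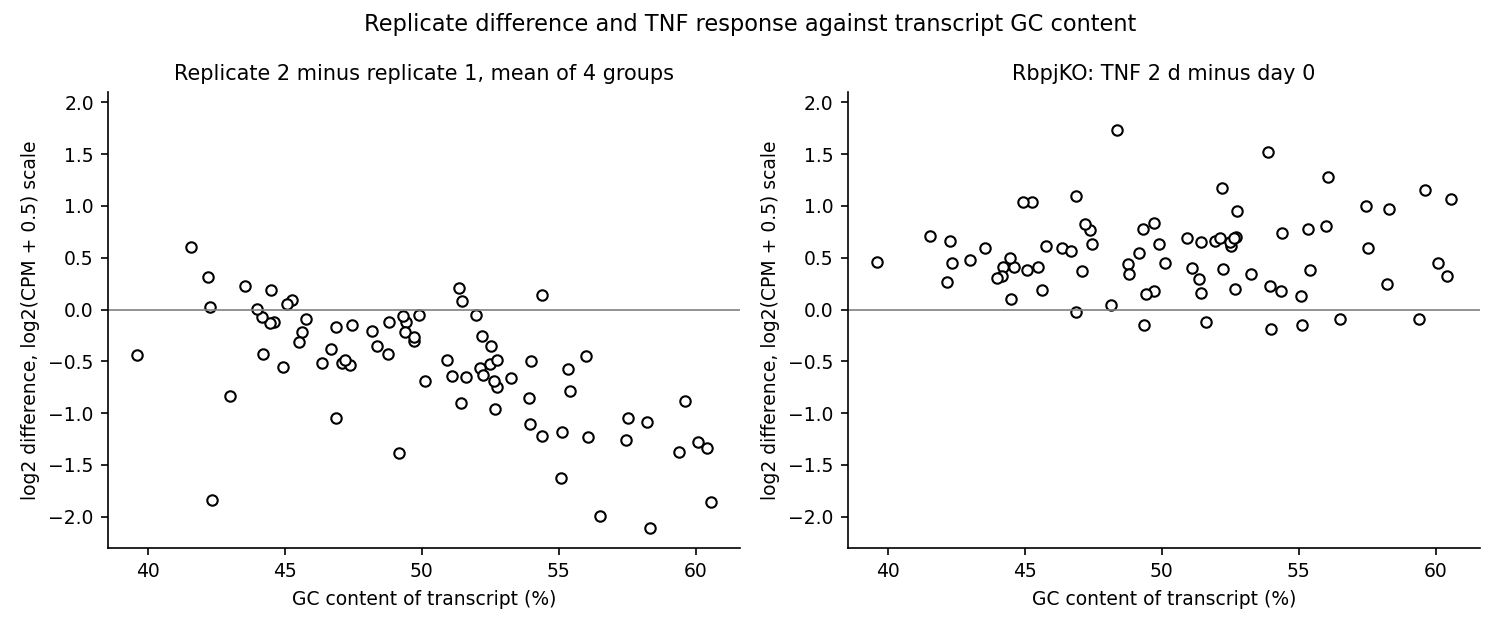
Log2 difference on the log2(CPM + 0.5) scale (y axis) against GC content of the transcript in percent (x axis) for the 77 members: replicate 2 minus replicate 1, mean of 4 groups (left), and TNF at 2 days minus day 0 in RbpjKO (right). The replicate difference falls with GC content (r = -0.62, over genes) while the RbpjKO differences spread about 0.48 across the range.

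Exons of 23 members overlap those of another gene in the table, mostly on the opposite strand, and use of strand in counting was not given in the sources used here, so their reads cannot be fully told apart from those of the neighbour. The overlap was largest for Mrps25 with Nr2c2 (4590 of 6576 exon bases), Mrpl19 with Gcfc2 (1962 of 5450) and Mrps34 with Mapk8ip3 and Nme3 (up to 1309 of 2064). Of the 27 genes that rose with the block, 8 have such an overlap. For Mrps34 it covers most of the exon bases, Mrpl47 shares up to 616 of 4419 bases with Ndufb5 and Actl6a, and Mrps6 shares 159 of 1533 with Slc5a3. For Mrpl46, Mrpl9, Mrpl44, Mrpl51 and Mrpl36 it is 30 to 173 bases. Mrps35, Mrpl12, Mrpl41, Mrpl38 and Mrps5 have no such overlap.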

How the data were processed

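Poly-A RNA was sequenced from 8 libraries in 4 groups. Per the submitters' processing notes, the tools were fastp, HISAT2, HTSeq and edgeR and the build was mm10; the sources used here give no versions, settings, annotation or use of strand. What the authors deposited is 1 table of CPM for 24421 genes. Its values were whole multiples of 1 read (100% within 0.01 of a whole number), so reads and depths (9855859 to 35653203) were recovered. Counts of 2 libraries of a group were further apart than sampling noise in all 4 groups. The labels state 2 independent experiments and name no separate animals, so the p-values reflect only how these libraries vary.

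The main test was limma 3.58.1 in R 4.3.3 (lmFit, eBayes with trend, 2-sided) on log2(CPM + 0.5), a scale that understates changes of low genes. The 12194 genes that reached 1 CPM in 2 or more libraries entered (49.9% of those listed), with group as the only term and all 8 libraries sharing 1 spread. Benjamini-Hochberg adjustment ran over all 12194 genes for each of 5 contrasts, with a threshold of 0.05. The replicate number was fitted as a block beside it: the labels give each group 1 library of each number, and in all 6 pairs of groups the log2 differences of replicate 2 from replicate 1 went together over genes (Pearson r 0.577 to 0.805). edgeR 4.0.16 (quasi-likelihood) and DESeq2 1.42.0 on recovered reads, other filters, pseudocounts and scalings, and leaving out each library were alternatives. A pair of block fits, with TMM scaling and with the contrast's libraries alone, were added after the data were seen. The fits were also run on simulated reads that had the same replicate difference in every group. The block assumes this, so the simulation cannot show how the block does where groups differ in it.

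Named members were the 6 highest and 4 lowest by log2 difference in each contrast (2 and 2 for the difference of TNF responses), the 3 highest and lowest per kilobase and 11 fixed by name; of other lists, up to 3 with the smallest p. Members, lists and motifs were chosen with earlier results of these data known. Positions and exon lengths came from GENCODE M21 (GRCm38), which held all 77 symbols, and promoters from RefSeq (GRCm38.p6).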

Additional observations from a re-analysis of the deposited data

How the results depend on the processing

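The number of members called in RbpjKO with TNF, 1 in limma, was 27 with the replicate block, 11 with DESeq2, 2 with TMM, median-ratio or quantile scaling, and 0 with no filter on low values or with the contrast's libraries alone; leaving out 1 library gave 0 to 1, and 3 to 27 with the block. Of all genes, the share that rose was 3.09% in limma, 12.2% with the block, 8.23% with DESeq2 and 3.44% to 3.64% with those scalings. It was 2.08% with no filter and 0.451% with the contrast's libraries alone. edgeR without the block called 1 member (2.57% of all genes). The 27 became 18 with the contrast's libraries alone (10.3% of all genes) and 28 with a pseudocount of 1 (12.2%). With the block the count was also 38 with median-ratio scaling (13.8%), 40 with TMM (13.5%) and 38 in edgeR (13.1%). In WT the number called was 0 except in some block fits. It was 2 with the block under median-ratio or TMM scaling or in edgeR (2.6%, against 5.73% to 5.82% of all genes). For RbpjKO against WT with TNF it was 0, 10 with the block and 3 with DESeq2; with the block it was 0 with the contrast's libraries alone and 0 to 5 with 1 library left out. Of all genes, 5.53% passed upwards in this comparison with the block, 3.08% with DESeq2 and 0.631% in the block fit of the contrast's libraries alone. The cause of these changes in counts was not tested. Leaving out 1 library moved the members' median log2 difference to 0.21 to 0.84 for TNF in RbpjKO (0.39 to 0.61 with the block), -0.36 to 0.32 for TNF in WT (-0.24 to 0.12), -0.22 to 0.15 for RbpjKO against WT at day 0 (-0.19 to 0.090), 0.12 to 0.85 for RbpjKO against WT with TNF (0.39 to 0.63) and 0.20 to 0.92 for the difference of responses (0.38 to 0.68). The medians for TNF in RbpjKO, for RbpjKO against WT with TNF and for the difference of responses stayed above 0 in each alternative run.

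Without the block, leaving out 1 library turned the sign in these ranges: in RbpjKO with TNF, Mrps15 -0.55 to 0.16, Mrps11 -0.84 to 0.55, Mrpl23 -0.49 to 0.25, Mrpl3 -0.041 to 0.42, Mrps12 -1.27 to 1.08, Mrps18c -0.060 to 0.26 and Mrpl34 -0.056 to 2.00; in WT with TNF, Mrps34 -0.60 to 1.57, Mrps6 -0.24 to 0.79 and Mrpl28 -1.04 to 0.25; in RbpjKO against WT with TNF, Mrpl39 -0.26 to 0.048, Mrpl14 -0.85 to 0.70, Mrpl33 -0.26 to 0.30 and Mrpl34 -0.39 to 1.96. Mrps12 in RbpjKO was 0.13 in DESeq2 and 0.10 in edgeR. Mrpl33 against WT was -0.029 in DESeq2, -0.025 in edgeR, -0.020 with TMM, -0.023 with median-ratio and -0.058 with quantile scaling. In the fits that kept the block, no called member changed sign, and 173 of 296 re-run calls missed the threshold with 1 library left out; Mrpl34, above, is called with the block and changed sign without it.

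Depth limits low genes such as Mrps36 and Mrps12, and 2 libraries a group limit every test.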
